A study of Mus musculus with 4 samples.

Results

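Dynactin, the regulators of cytoplasmic dynein and the adaptors that tie dynein to its cargo were followed across 4 mouse melanocyte lines. The set was a list of 33 genes put together by function, with no threshold on a measured value, and it was set beside the 18193 genes that the arrays measured. Of the 33 genes, 30 had a probe set of their own and 25 entered the comparisons, out of 8892 genes in all. The other 8 members either had no probe set of their own (3) or did not pass the filter on low values (5).

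Cytoplasmic dynein is the motor that walks towards the minus ends of microtubules, which in most cultured cells lie near the nucleus. Alone it moves poorly, and it becomes a processive motor when an activating adaptor joins it to dynactin, a large complex built on a short actin-like filament. Lis1 and its partners help dynein to open and to assemble with dynactin, plus-end proteins hold the complex at growing microtubule tips, and the adaptors choose the cargo. In pigment cells, dynein carries melanosomes, the organelles that make and store melanin, towards the cell centre.

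Lines 10d and 13d were bcat* by their sample labels, and lines 14d and 9v were WT. The bcat* animals carry a stable mutant of β-catenin that is expressed in the melanocyte lineage, and β-catenin drives transcription with factors of the Tcf/Lef family. All lines were immortalized, came from C57BL/6J skin at an age of 3 days, and reached 80% confluency in medium with TPA at 200 nM, a phorbol ester that melanocytes need in culture. Lines 10d and 9v were male and lines 13d and 14d female by their labels, and each line was hybridized to 1 Affymetrix array. The article gives lines 13d and 14d the opposite genotypes (13d WT, 14d bcat*), so that for these lines the genotype is open, and values are given by line.

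The unit was the intensity deposited by the authors, a whole number on a linear scale, and where a gene had several probe sets the brightest over the 4 lines, by mean log2, stood for it. A probe set at 32 or more was taken as detected, which held for 35.8% to 36.1% of probe sets per array. Genes with a mean log2 intensity of 5 or more over the 4 lines entered the comparisons. Each array read the RNA of a whole culture, so that fewer cells of a kind and less RNA per cell cannot be told apart.

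The lines bore the markers of melanocytes, with 11 of 12 markers passing the filter and intensities that summed to 313550 in line 10d and 284881 in 13d, against 300345 in line 14d and 293563 in line 9v. Of 8 fibroblast markers 2 passed the filter (Col1a2 and Postn), while Col1a1, Col3a1, Dcn and Lum did not, and of 7 keratinocyte markers 1 passed (Krt10). Col1a2 differed between lines, at 80 in line 10d and 24 in line 13d, against 17 in line 14d and 175 in line 9v. Among Schwann cell markers S100b alone passed, and it stood apart between lines, at 308 in line 10d and 3836 in line 13d, against 5 in line 14d and 58 in line 9v, and the part of Col1a2 and S100b in the values of the members was not tested. Xist and the Y-linked genes Eif2s3y, Kdm5d and Uty matched the labelled sex of all 4 lines, whereas the article's methods describe male mice. The β-catenin gene Ctnnb1 was at 31799 in line 10d and 34368 in line 13d, against 31844 in line 14d and 30254 in line 9v, and its probe set does not tell the mutant transcript from the normal one.

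Most members differed by less than 2-fold between the lines, and Nin, Bicd2, Nde1 and Spdl1 had the widest ranges among members at 32 or more in every line. In line 10d against line 9v, 0 of the 25 members were 2-fold higher, where 7.87% of all 8892 genes were, and 1 member (Nin) was 2-fold lower, where 10.0% of all genes were. In line 13d against line 14d, 4 members (Nin, Nde1, Trak2 and Bicd2) were 2-fold higher, against 11.1% of all genes, and 1 member (Mapre3) was 2-fold lower, against 8.63%. The highest line exceeded the lowest by 2-fold or more in 8 of the 25 members, against 40.6% of all genes. With 1 array per line these differences have no replicate check and no test was made within a pair.

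**Figure D1:**
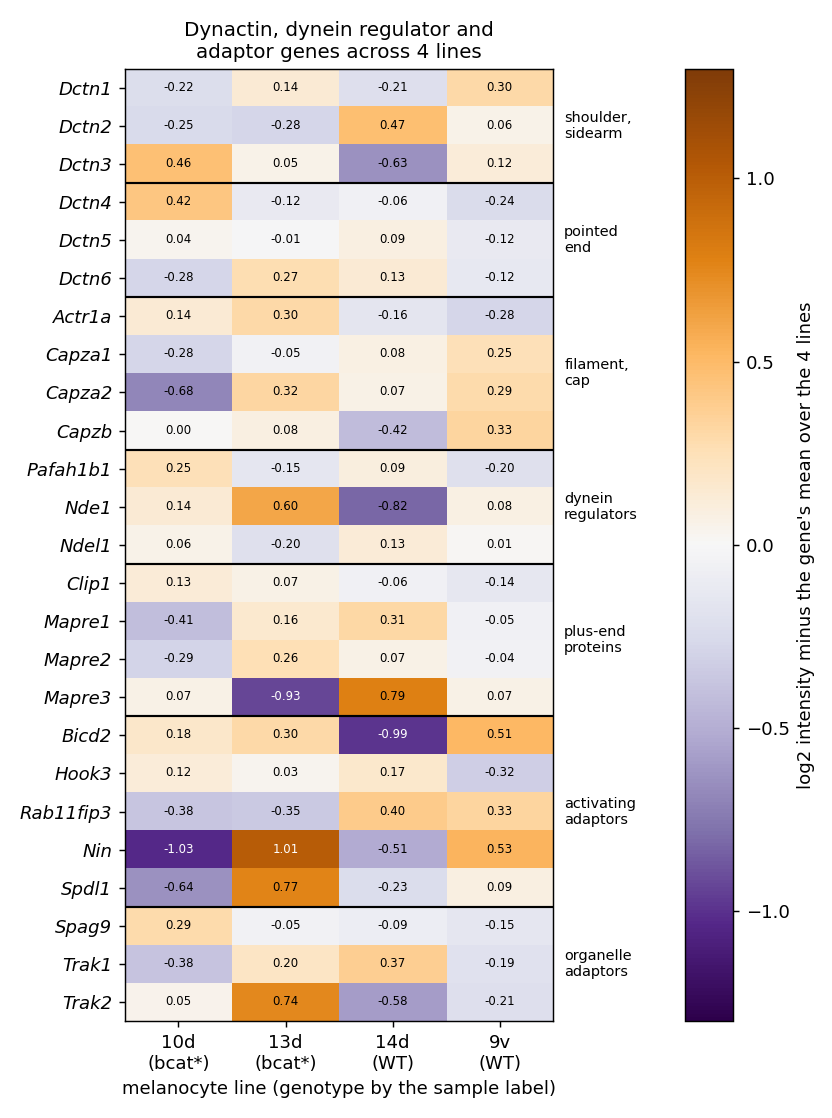
Each cell gives the log2 intensity of a member gene (rows, grouped by role) in a melanocyte line (columns, with the genotype of the sample label), minus the gene's mean over the 4 lines, from 1 array per line. Nin and Spdl1 have their lowest value in line 10d and their highest in line 13d, and Bicd2 and Nde1 have their lowest value in line 14d.

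The upstream sequences of these 4 genes are shown because they had the widest ranges among members at 32 or more in every line, with Nin and Spdl1 sharing their highest and lowest line and Bicd2 and Nde1 sharing their lowest. Each is the 250 bases before a RefSeq transcription start on GRCm38.p6, written 5′ to 3′ on the strand of the gene. Nin lies on the minus strand (chr12:70112036-70112285) and has 3 annotated starts, of which the one whose window holds the most motifs is shown. Spdl1 also lies on the minus strand (chr11:34833642-34833891), while Bicd2 (chr13:49341299-49341548) and Nde1 (chr16:14163025-14163274) lie on the plus strand. Capitals mark matches to the motifs searched on both strands, which were the Tcf/Lef motifs CTTTGA and CTTTGT, the E-boxes CACGTG and CATGTG, and TTTGAA, the cell cycle homology region (CHR) of many mitotic genes.
Nin: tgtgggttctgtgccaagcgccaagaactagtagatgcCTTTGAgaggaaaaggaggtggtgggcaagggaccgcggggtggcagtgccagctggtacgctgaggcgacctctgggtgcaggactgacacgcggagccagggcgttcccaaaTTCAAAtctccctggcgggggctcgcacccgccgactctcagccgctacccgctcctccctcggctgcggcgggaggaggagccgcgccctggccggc
Spdl1: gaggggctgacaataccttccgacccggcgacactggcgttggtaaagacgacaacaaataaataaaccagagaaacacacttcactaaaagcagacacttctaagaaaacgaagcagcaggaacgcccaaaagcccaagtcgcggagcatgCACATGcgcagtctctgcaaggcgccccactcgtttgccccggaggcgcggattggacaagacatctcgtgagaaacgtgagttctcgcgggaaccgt
Bicd2: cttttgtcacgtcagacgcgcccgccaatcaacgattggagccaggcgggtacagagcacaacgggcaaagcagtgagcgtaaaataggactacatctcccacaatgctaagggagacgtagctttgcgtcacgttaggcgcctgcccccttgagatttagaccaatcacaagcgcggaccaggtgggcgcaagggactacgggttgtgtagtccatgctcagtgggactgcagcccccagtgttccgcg
Nde1: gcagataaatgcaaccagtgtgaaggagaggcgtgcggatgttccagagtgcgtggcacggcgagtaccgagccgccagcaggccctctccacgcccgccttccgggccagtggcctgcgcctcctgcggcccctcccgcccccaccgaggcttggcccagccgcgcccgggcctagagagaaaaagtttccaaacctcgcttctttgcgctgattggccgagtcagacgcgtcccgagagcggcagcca
The Nin window holds CTTTGA at position -212 and TTTGAA at position -98, counted from the start, and the Spdl1 window holds CATGTG at position -98. Spdl1 also has TTTGAA at position 1, in the bases after the start that are not printed. The Bicd2 and Nde1 windows hold none of these letters. Windows of 300 bases, with 50 bases after the start, were found for 29 of the 33 members, 38 windows in all. A Tcf/Lef motif of either form stood in 8 of the 38 (21.1%), against 31.2% of all 32851 windows. For CATGTG the shares were 15.8% of the member windows and 14.2% of all windows, and for CACGTG 7.89% and 7.15%. The CHR letters TTTGAA stood in 10.5% of the member windows and 17.9% of all windows. A match is a run of letters and not a measured binding site.

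The shoulder and sidearm of dynactin form the arm that reaches dynein. Dctn1, the p150Glued subunit that binds microtubules and the dynein intermediate chain, was at 2618 in line 10d and 3351 in line 13d, against 2633 in line 14d and 3744 in line 9v. Lines 10d and 14d were thus nearly alike and lay under the other pair of lines, so that the labelled genotypes overlapped. The log2 difference was -0.52 for line 10d over 9v and 0.35 for line 13d over 14d, and the dimmer probe set of Dctn1 gave -0.78 and 0.10.

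Dctn2, or dynamitin, whose overexpression takes dynactin apart, was at 2009 in line 10d and 1968 in line 13d, against 3301 in line 14d and 2485 in line 9v. Both lines labelled bcat* lay under both lines labelled WT, by -0.31 in the first pair and -0.75 in the second on the log2 scale. In limma's moderated test of the labelled groups the difference was -0.53 ± 0.27 (SE, n = 2 lines a group), with an adjusted p of 0.703. Dctn3, the p24 subunit of the shoulder, had the widest range of all dynactin subunits measured, with 6289 in line 10d and 4744 in line 13d, against 2943 in line 14d and 4955 in line 9v. The highest line exceeded the lowest by 2.14-fold, and line 14d alone was set off from the others.

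The pointed end caps one tip of the filament and takes part in cargo choice. Its p62 subunit Dctn4 was at 777 in line 10d and 533 in line 13d, against 557 in line 14d and 490 in line 9v. Line 10d was the highest line in 3 of the 4 probe sets of Dctn4 that passed the filter, and its log2 difference over line 9v ran from 0.12 to 0.96 among the 4. Dctn5 (p25) varied least of the 25 members that passed the filter, with 1712 in line 10d and 1649 in line 13d, against 1773 in line 14d and 1534 in line 9v. Dctn6 (p27) had 4779 in line 10d and 7008 in line 13d, against 6374 in line 14d and 5332 in line 9v, which put both male lines under both female lines. Actr10 (Arp11), the actin-related protein of this end, had no probe set of its own and is not analysed here.

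The filament is made of Arp1 and is closed at its barbed end by the heterodimer CapZ. Actr1a, which encodes Arp1, was at 1927 in line 10d and 2162 in line 13d, against 1571 in line 14d and 1447 in line 9v. Both lines labelled bcat* lay above both lines labelled WT, with 0.41 and 0.46 in the pairs and a limma difference of 0.44 ± 0.24 (adjusted p = 0.712). Its paralog Actr1b had no probe set of its own and is not analysed here.

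Of the capping subunits, which also cap ordinary actin filaments, Capza2 was lowest in line 10d. It had 3101 in line 10d and 6222 in line 13d, against 5210 in line 14d and 6076 in line 9v, and its other probe set gave 2627 and 4917, against 4220 and 4690, in the same order of lines. Line 10d was thus set apart from 3 lines that lay close together, at a log2 difference of -0.97 to line 9v, just inside 2-fold. Capza1 had the same lowest line, with 5678 in line 10d and 6654 in line 13d, against 7255 in line 14d and 8183 in line 9v. Capzb was lowest in line 14d in each of its 3 passing probe sets, the brightest of which gave 3874 in line 10d and 4095 in line 13d, against 2888 in line 14d and 4875 in line 9v. The 3 capping subunits therefore did not share a lowest line.

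Among the dynein regulators, Nde1 differed between the female lines and not between the male lines. Nde1 holds Lis1 at dynein and is needed for cell division in neural progenitors. It was at 1549 in line 10d and 2144 in line 13d, against 800 in line 14d and 1489 in line 9v. Line 13d exceeded line 14d by 1.42 on the log2 scale, whereas line 10d exceeded line 9v by 0.06, which left both lines labelled bcat* above both lines labelled WT. Whether the pairs differ beyond the error of single arrays was not tested. Its paralog Ndel1, which binds the same partners, stayed between 1331 (line 13d) and 1670 (line 14d).

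Pafah1b1 encodes Lis1 itself, and its 3 passing probe sets did not all go the same way. The brightest gave 1638 in line 10d and 1241 in line 13d, against 1466 in line 14d and 1196 in line 9v. A probe set of equal mean gave 1298 and 1251, against 1286 and 1701, and the third gave 1360 and 931, against 857 and 963. The log2 difference of line 10d over 9v was thus 0.45 in the brightest, -0.39 in the next and 0.50 in the third, so that 2 of 3 put line 10d above 9v.

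Of the plus-end proteins, Mapre1 and Mapre2 had their lowest value in line 10d and Clip1 was nearly level. Mapre1 encodes EB1, which tracks growing tips and recruits Clip1 and Dctn1 there, and it had 5636 in line 10d and 8354 in line 13d, against 9298 in line 14d and 7235 in line 9v. All 4 passing probe sets of Mapre1 had their lowest value in line 10d and their highest in line 14d. Clip1 (CLIP-170), which links tips to dynactin, lay between 689 (line 9v) and 828 (line 10d).

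Mapre2 (EB2) was also lowest in line 10d in each of its 4 passing probe sets, with 1216 in line 10d and 1783 in line 13d, against 1554 in line 14d and 1443 in line 9v in the brightest. The size differed between its probe sets, from -0.94 to -0.22 for line 10d over 9v. Mapre3 (EB3) lay at the detection level, with 34 in line 10d and 17 in line 13d, against 56 in line 14d and 34 in line 9v. It was the member nearest to the filter on the inside, at a mean log2 of 5.02, and its log2 difference of -1.72 between lines 13d and 14d rests on small whole numbers. Clip2, a brain-enriched relative of Clip1, was at 5 in every line and is under the detection level.

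The activating adaptors are coiled-coil proteins that bring dynein and dynactin together, and 3 of the 5 that passed the filter had a range of at least 2-fold, where 40.6% of all genes did. The largest range of all 25 members was that of Nin. Ninein anchors microtubules at the mother centriole and activates dynein in vitro. Its intensity was 107 in line 10d and 441 in line 13d, against 154 in line 14d and 317 in line 9v. Within the male pair line 10d was lower by -1.57 on the log2 scale, and within the female pair line 13d was higher by 1.52. The lines labelled bcat* were thus the lowest and the highest of the 4. The second passing probe set of Nin, at 17 in line 10d and 67 in line 13d, against 31 in line 14d and 78 in line 9v, kept both directions, with 2 of its values under the detection level.

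Spdl1 followed the order of lines of the brightest Nin probe set, at a smaller range. Spindly brings dynein to kinetochores, the sites where chromosomes attach to the spindle. It was at 228 in line 10d and 604 in line 13d, against 303 in line 14d and 377 in line 9v, in its passing probe set. Its log2 differences were -0.73 within the male pair and 0.995 within the female pair, which is a ratio of 1.99. Nin and Spdl1 were the 2 of 25 members that moved by at least 1.5-fold in opposite directions in the pairs, against 6.76% of all genes.

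Bicd2 differed in the same way in all its passing probe sets. It links dynein to Rab6 vesicles and to the nuclear envelope. Its brightest probe set had 1612 in line 10d and 1753 in line 13d, against 714 in line 14d and 2031 in line 9v. Line 14d was lowest in each of the 4 passing probe sets, with a log2 difference of line 13d over 14d from 1.27 to 1.65, and in the brightest of them the other 3 lines lay close to each other. Between lines 10d and 9v, both of undisputed genotype, the difference was -0.33, so that the lines labelled WT were both the highest and the lowest.

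**Figure D2:**
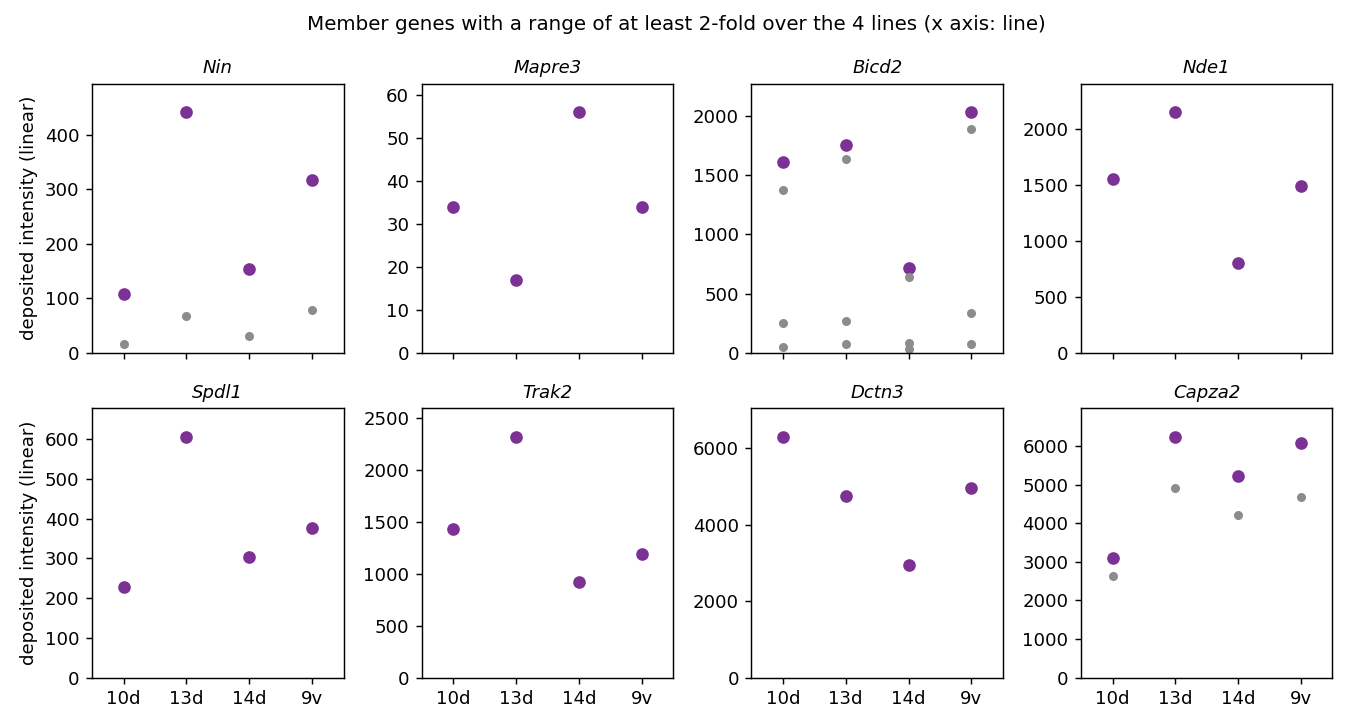
The panels give the deposited intensity (linear vertical axis from 0) in each line for the 8 members whose highest and lowest lines differed by at least 2-fold, with the brightest probe set in purple and further passing probe sets in grey, 1 array per line. The 4 probe sets of Bicd2 have their lowest point in line 14d, and both probe sets of Capza2 and of Nin have theirs in line 10d.

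Rab11fip3, an adaptor for recycling endosomes, was the 1 activating adaptor that passed the filter whose labelled groups did not overlap. It was dim, at 51 in line 10d and 52 in line 13d, against 87 in line 14d and 83 in line 9v. Its difference between labelled groups was -0.72 ± 0.24 on the log2 scale (limma, 95% interval -1.37 to -0.07), and after adjustment over all genes p was 0.583. Hook3, which joins dynein to the Golgi and to endosomes, had 323 in line 10d and 305 in line 13d, against 335 in line 14d and 238 in line 9v. Its 4 passing probe sets gave -0.78 to 0.44 for line 10d over 9v, so that no direction is given.

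Of the activating adaptors that did not pass, Hook1 was detected in 1 line, at 63 in line 9v and 16 in each of the others. It was the member nearest to the filter on the outside, with a mean log2 of 4.49. Hook2, which acts at the centrosome, was at 4 in every line. Bicd1, the paralog of Bicd2, had no probe set of its own and is not analysed here.

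Among adaptors that attach the motor to organelles, Trak2 differed most of the 3 that passed the filter. Trak1 and Trak2 couple mitochondria to kinesin and dynein through the Miro proteins. Trak2 had 1429 in line 10d and 2317 in line 13d, against 923 in line 14d and 1197 in line 9v, so that both lines labelled bcat* lay above both lines labelled WT. The limma difference was 0.79 ± 0.36 with an adjusted p of 0.679. Trak1 ran another way, at 211 in line 10d and 315 in line 13d, against 356 in line 14d and 241 in line 9v. Its dim second probe set stood out in line 14d alone, with 31 in line 10d and 19 in line 13d, against 112 in line 14d and 31 in line 9v.

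Spag9 (JIP4), a scaffold that binds motors on lysosomes and endosomes, was highest in line 10d, with 3197 there and 2534 in line 13d, against 2467 in line 14d and 2363 in line 9v. Its relative Mapk8ip3 (JIP3), best known from axonal transport, was detected in line 14d alone, at 48, and had 14 in line 10d, 15 in line 13d and 14 in line 9v. Rilp, which links Rab7 on late endosomes to dynein and dynactin, lay between 10 and 14 and was under the detection level in every line.

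In the test that the labels imply, lines 10d and 13d against lines 14d and 9v, limma called 0 of the 25 members at an adjusted p under 0.05, against 6 of 8892 genes (0.0675%). At an unadjusted p under 0.05 it held 1 member (Rab11fip3), against 8.07% of all genes. With the article's genotypes, which put 13d with WT and 14d with bcat*, limma called 0 members and 0 genes (0%), and at an unadjusted p under 0.05 it held 1 member (Nin), against 3.43% of all genes. Under that reading Nin differed by -1.54 ± 0.35 on the log2 scale and Spdl1 by -0.86 ± 0.37, each with an adjusted p of 0.984. Under the labels their differences were -0.02 ± 0.84 and 0.13 ± 0.56, with adjusted p of 0.996 and 0.96. The size of these differences, and the sign for Spdl1, thus depend on which source is right about lines 13d and 14d. So does the member held at an unadjusted p under 0.05. At an adjusted p under 0.05, limma called 0 members with either source.

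By sign alone, 11 of the 25 members (44.0%) went the same way in both pairs, against 54.0% of all genes. These were Dctn2, Capza1, Mapre1, Rab11fip3 and Trak1, lower in 10d and in 13d, and Dctn3, Actr1a, Nde1, Clip1, Spag9 and Trak2, higher in both. Capza1, Clip1 and Trak1 changed sign in 1 pair under another summary or scaling. In 5 members (Actr1a, Nde1, Clip1, Spag9 and Trak2) both lines labelled bcat* lay above both lines labelled WT, against 19.3% of all genes, and in 3 (Dctn2, Capza1 and Rab11fip3) both lay below, against 20.4%. With the article's genotypes 5 members (Dctn4, Dctn5, Pafah1b1, Ndel1 and Hook3) lay above without overlap by their brightest probe set, against 17.0% of all genes, and 6 (Dctn1, Capza2, Capzb, Bicd2, Nin and Spdl1) lay below, against 14.6%. Between the article's groups, a further passing probe set of Dctn4 and of Capzb overlapped, and so did every further passing probe set of Pafah1b1. A further passing probe set of Hook3 lay below without overlap, opposite to its brightest. It was at 87 in line 10d and 134 in line 14d, against 153 in line 13d and 149 in line 9v. The remaining passing probe sets of Hook3 overlapped. Between the labelled groups, the further passing probe set of Capza1 and that of Clip1 overlapped. The median member difference was -0.16 for line 10d over 9v and 0.13 for line 13d over 14d, and the medians over all tested genes were 0.01 and -0.01. Line 10d was the lowest line for 10 of the 25 members, against 26.8% of all genes, and line 13d was the highest for 8, against 21.1%.

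**Figure D3:**
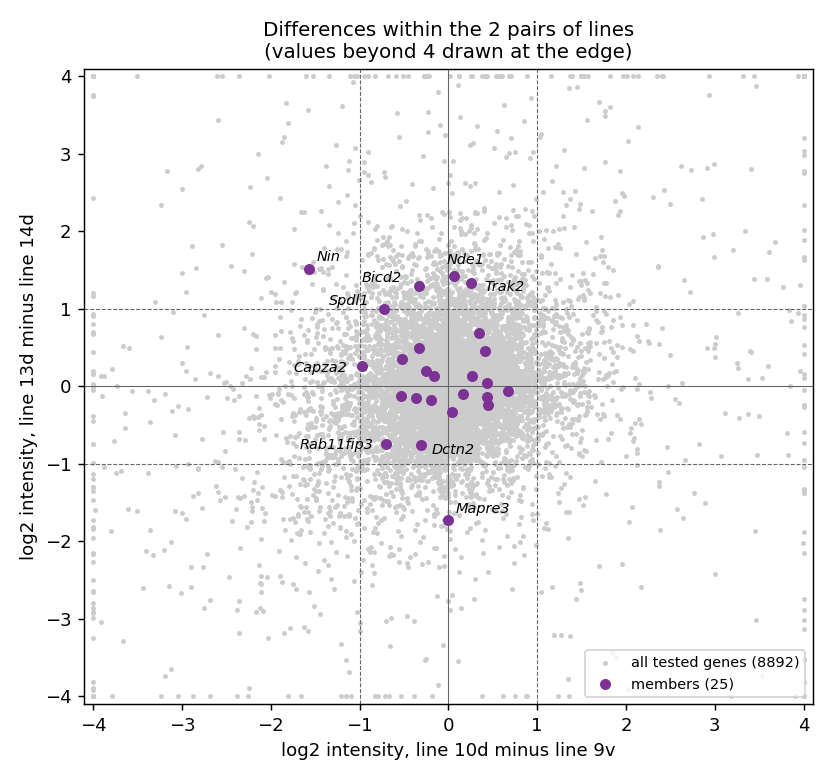
Each point is a gene, with the log2 difference of line 10d minus line 9v on the horizontal axis and of line 13d minus line 14d on the vertical axis, members in purple and all 8892 tested genes in grey, and dashed lines at 2-fold. Nin lies beyond 2-fold on both axes in opposite directions, and Nde1, Trak2 and Bicd2 lie beyond 2-fold on the vertical axis only.

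Across the 6 pairs of lines, the number of members that differed by at least 2-fold ran from 1 of 25 (line 10d with 9v, and 13d with 9v) to 5 of 25 (13d with 14d). For all genes the shares ran from 12.7% (13d with 9v) to 24.1% (10d with 14d). For line 10d with 14d, the most distant pair over all genes, 2 of 25 members reached 2-fold. The pair of lines given opposite genotypes by the article and the labels, 13d with 14d, was therefore the one with the most members past 2-fold, at 20.0% against 19.7% of all genes.

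Nin and Spdl1 act at centrosomes and kinetochores, and genes of mitosis were measured beside them. All 15 mitosis genes that passed the filter had less signal in line 10d than in 9v, where 4348 of all 8892 genes did. The medians were -0.74 for the 15 and 0.01 for all genes on the log2 scale. In line 13d against line 14d, 14 of the 15 were higher, where 4307 of all 8892 genes were, with medians of 0.87 and -0.01. Cenpa was the exception, at -0.08. Ccnb2, cyclin B2, had 2585 in line 10d and 6742 in line 13d, against 4418 in line 14d and 6489 in line 9v, and Aurkb, the kinase of the chromosomal passenger complex, had 745 and 2683, against 1464 and 1847. The 15 genes summed to 29984 in line 10d and 64183 in line 13d, against 37779 in line 14d and 50909 in line 9v. The order of lines in these sums, 13d, 9v, 14d and 10d from high to low, was that of Nin, Spdl1 and also Capza2 by their brightest probe sets. In the second passing probe set of Nin, line 9v was the highest, at 78 against 67 in line 13d. Single mitosis genes did not all follow it. Mki67, Aurka, Ttk, Kif11, Cdc20 and Cenpe were lowest in line 14d, as Nde1 and Bicd2 were, while Ccnb2 and Aurkb were lowest in line 10d. The part of mitosis in the values of Nin, Spdl1, Capza2, Nde1 and Bicd2 was not tested.

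**Figure D4:**
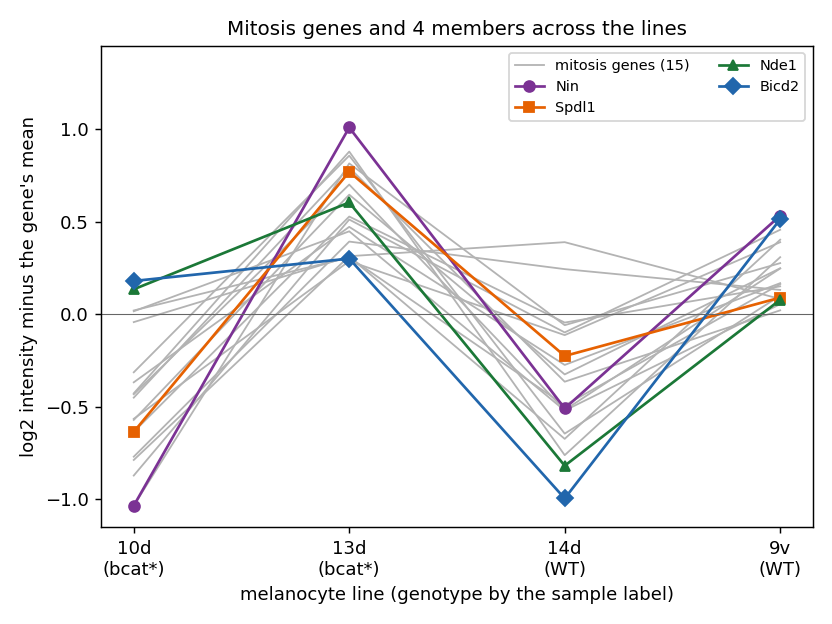
The log2 intensity minus the gene's mean over the 4 lines (vertical axis) is drawn for each line (horizontal axis) for 15 mitosis genes in grey and 4 members in colour, 1 array per line. Nin and Spdl1 are lowest in line 10d and highest in line 13d, and Bicd2 and Nde1 are lowest in line 14d.

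The chains of cytoplasmic dynein 1, on which these regulators act, gave a different order for the light chain Dynlt3. Of 14 chain genes, 11 had a probe set and 8 passed the filter, and Dynlt3 was the 1 of the 8 that was 2-fold lower in line 10d than in 9v and in line 13d than in 14d. It had 4764 in line 10d and 4055 in line 13d, against 11963 in line 14d and 11518 in line 9v, with log2 differences of -1.27 and -1.56 and an adjusted p of 0.443 in limma. Its low lines were thus 10d and 13d, and no member shared a 2-fold difference in both of these directions. The medians of the 8 chains were -0.06 and 0.08, and Dynll1, the LC8 chain, had 15349 in line 10d and 26551 in line 13d, against 25283 in line 14d and 24047 in line 9v. For Dynll1 line 10d was the lowest line, as it was for 10 of the 25 members and for 26.8% of all genes.

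Further adaptors and partners of dynein that are not members were read from a list of 26 genes, of which 20 passed the filter. In line 10d against line 9v, 1 was 2-fold higher (7.87% of all genes) and 3 were 2-fold lower (10.0%), and in line 13d against line 14d 2 were 2-fold higher (11.1%) and 0 lower (8.63%). Ninl, the ninein-like protein that also binds dynein, had the largest difference of line 10d over 9v in the list, at 54 in line 10d and 48 in line 13d, against 92 in line 14d and 200 in line 9v. Both lines labelled bcat* lay under both lines labelled WT for Ninl, unlike for its relative Nin. Ccdc88a (girdin), a coiled-coil protein with a Hook-like domain, was next, with 505 in line 10d and 760 in line 13d, against 1167 in line 14d and 1380 in line 9v. Of 10 further plus-end proteins 6 passed, and all 6 were lower in line 10d than in 9v, with a median of -0.43 against 0.01 over all genes. In line 13d against 14d, 4 of the 6 were higher, 2 of them by 2-fold, with a median of 0.39 against -0.01 over all genes. Macf1, a giant linker of microtubules and actin, had 1677 in line 10d and 2724 in line 13d, against 1236 in line 14d and 3335 in line 9v.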

How the data were processed

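The transcripts of 4 lines of mouse melanocytes were read on 1 Affymetrix array each. The authors deposited 1 intensity per probe set for each array, and the submitters' processing notes name GCRMA (background correction from probe sequence, then normalization between arrays), its version and settings being not given in the sources used here. Deposited intensities were whole numbers of 2 or more whose quartiles nearly matched, so the scale was read as linear and log2 values were computed from them. Ratios between dim values are coarse because of the rounding, and precision is limited by the number of arrays.

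Of 45037 probe sets, 34945 had 1 gene in the platform annotation, 932 had several and 9160 were not listed, and those with several named nothing here. The brightest probe set by mean log2 stood for a gene, and a mean log2 of 5 or more was required. Differences were taken within a probe set and never between genes. A gene was called within a pair of lines at 2-fold, without a test. Labelled groups were compared with lmFit and eBayes (limma 3.58.1, R 4.3.3) over 8892 genes with Benjamini-Hochberg adjustment. Each group held 2 lines with 1 culture each, so p-values measure only the spread between these cultures. On simulated data for this comparison, changes of 16-fold in 200 genes were recovered for 150, with 9 false calls. The widest range of a member was 4.12-fold (Nin), and changes of that size were not simulated.

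The members were listed by function and the lists by role, with earlier results of these data known. All 33 members are named, and of each other list up to 2 genes with the largest difference of line 10d over 9v, with Dynlt3 always. Further genes were picked after their values were seen. These were Cenpa, Mki67, Aurka, Ttk, Kif11, Cdc20, Cenpe and the further cell type markers and sex-linked genes named, such as Col1a2, S100b and Krt10. Promoter windows were RefSeq's on GRCm38.p6. Alternatives were other summaries of probe sets, other normalizations, filters and folds, the article's genotypes, the labelled sex as a block and leaving out each line.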

Additional observations from a re-analysis of the deposited data

Results flagged for a closer look

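Nin and Spdl1 differed in opposite directions in the pairs of lines. Nin was -1.57 on the log2 scale for line 10d over 9v, both male, and 1.52 for line 13d over 14d, both female. Spdl1 was -0.726 in the male pair and 0.995 in the female pair. Each pair holds 1 array per line, so that the difference between the pairs was not tested. If the article's genotypes of lines 13d and 14d are used, both genes are lower in bcat* than in WT lines in both pairs, so that the genotype labels, the sex and the line cannot be told apart here.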

How the results depend on the processing

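The labels number no replicates, so lines were paired by labelled sex, with 1 line of each labelled genotype in a sex and the sex as a block. Limma called 0 of 25 members under every alternative run, which were the summaries of probe sets, normalizations, filters, article's genotypes, sex block, intensity trend and lines left out. Over all genes it called 6 by the labels, 16 after median centring, 12 after quantile normalization, 281 without a filter on low values, and 0 with the article's genotypes, with the lines paired by the sex block or with an intensity trend, and 0 to 0 with a line left out. At 1.5-fold in place of 2-fold, members past the threshold numbered 5 in place of 1 for line 10d over 9v, 9 in place of 5 for line 13d over 14d and 14 in place of 8 for the range over the lines, against 3325 in place of 1592, 3605 in place of 1752 and 6286 in place of 3612 of all genes. Without a filter 2 members passed for line 10d over 9v, Hook1 being the second. With a line left out, the members with a 2-fold range numbered 3 (without line 13d, where Dctn3, Bicd2 and Nin stayed) to 8 (without line 9v), with 5 without line 10d and 4 without line 14d, and over all genes they numbered 2374 (without line 14d) to 3051 (without line 9v). Of members past 2-fold in a pair none changed sign under another summary or normalization. Among them, Nde1 and Mapre3 had 1 probe set each, so that another summary could not change their sign. Another 6 members with smaller differences changed sign in 1 pair or both (Dctn6, Capza1, Clip1, Mapre2, Hook3 and Trak1, at most 0.44 in size on the log2 scale). Median centring moved the median of all genes for line 10d over 9v by 0.19. Values of 4 members (Capzb, Mapre2, Mapre3 and Nin) moved by over 1.5-fold in some setting. With probe sets whose names end in _x_at, _s_at or _a_at left out, Capzb was read from a probe set at 6 in every line. Its range of 0.76 became 0, and all 3 of its passing probe sets ended in _a_at. Actr1a was then read from a probe set at 7 in every line. Its range of 0.58 became 0, a move of just under 1.5-fold. With values raised to 32, the 17 of Mapre3 in line 13d became 32, and its difference of line 13d over 14d went from -1.72 to -0.81. Causes of the other changes were not tested.

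With 1 array per line, no error can be put on a difference within a pair, and with 2 lines a group the test by labels can miss changes. Mapre3, Rab11fip3, Hook1 and Mapk8ip3 lay near the detection level, where rounding is coarse. Pafah1b1 (1 of 3) and Hook3 have probe sets of opposite direction.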
